A study of Mus musculus with 39 samples.

Results

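The CTCF-binding site HS39.5 lies at the upstream edge of the mouse α-globin domain, and the fragments it contacts were examined here. The viewpoint was the DpnII fragment chr11:32137178-32137424 (mm9), and it overlaps a coding exon of Nprl3 in the GENCODE vM1 annotation. Members were all DpnII fragments in a window of 475 kb around the α-globin cluster, leaving out 8 fragments within 1 kb of the viewpoint. This gave 1096 of 1104 fragments in the window, out of 295448 DpnII fragments on chromosome 11. Positions are given in kb from the viewpoint, with a minus sign upstream, away from the globin genes. Of these members, 1042 carried a read in any of the 18 files used and 54 carried none. Of the 8 fragments left out, 2 carried reads, and the others were at 0 in every file. At this limit, the fragment just outside on the downstream side (chr11:32138081-32138998) averaged 679 reads per 100000 chromosome 11 reads in WT, and the nearest member beyond it (chr11:32138999-32139267) averaged 1106. Upstream, the same values were 847 just outside (chr11:32135980-32136424) and 1257 just inside (chr11:32135766-32135979).

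CTCF is a zinc-finger protein that binds DNA in a directional manner. Cohesin, a ring complex that extrudes chromatin loops, is held up at CTCF-bound sites, and loops form most often between sites that point towards each other, which marks the edges of self-interacting domains. At the mouse α-globin locus the adult genes Hba-a1 and Hba-a2 are driven in erythroid cells by a cluster of upstream enhancers, of which R1 and R2 are the strongest and lie in introns of the widely expressed gene Nprl3. CTCF sites flank this cluster on both sides, and HS39.5 is on the enhancer side while +44 and +48 are on the far side of the globin genes.

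Contacts were measured by NG Capture-C, in which chromatin is crosslinked, cut with DpnII, religated and captured with oligonucleotides to a chosen viewpoint, so that each reporter read is a ligation of that viewpoint to another fragment. All cells were primary erythroblasts cultured from disaggregated mouse foetal liver (MFL) with the strain given as C57Bl6, although the study's methods describe a mixed background, and all were depleted of Ter119-positive cells, sorted on CD44 and cell size, and given BrdU late in culture. In the study's methods the depletion and sorting were done on the expanded cells, before the 30 h of differentiation. Wild-type MFL at 0 h and MFL at 30 h of differentiation (3 biological replicates each) were captured together with Hba-1 and Hba-2, and each library was sequenced in a NextSeq and a MiSeq run. DKO cells with R1 and R2 deleted on both alleles and their WT controls, both at 30 h (3 biological replicates each), were captured together with Hba-1, Hba-2, +44 and +48. No expression was measured in these files, so the erythroid identity of the cells could not be checked against markers, and p-values measure the spread between the labelled replicates only.

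The sequences of the viewpoint and of the +44 site are shown first, because their direction and likeness can be read from them. The whole viewpoint fragment (chr11:32137178-32137424, mm9, plus strand) and the stretch of the +44 fragment that holds its matches (chr11:32221307-32221436, mm9, plus strand) were as follows, in lower case, with capitals marking the letters searched on either strand, CCNNNAGNNGGC (the core of the CTCF motif) or GGGGGCGC (8 letters chosen after the viewpoint sequence was read, which can overlap the core).
HS39.5 fragment: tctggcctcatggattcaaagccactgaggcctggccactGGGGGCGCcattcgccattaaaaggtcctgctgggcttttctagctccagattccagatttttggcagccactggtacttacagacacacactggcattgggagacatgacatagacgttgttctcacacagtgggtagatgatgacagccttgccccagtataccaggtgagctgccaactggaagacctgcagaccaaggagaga
CTCF +44 stretch: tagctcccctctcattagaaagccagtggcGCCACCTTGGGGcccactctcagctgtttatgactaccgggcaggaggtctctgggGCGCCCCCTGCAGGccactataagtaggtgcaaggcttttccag

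The core occurred in 100 of 1096 members (9.12%) against 5.67% of all chromosome 11 DpnII fragments. The viewpoint fragment did not hold the core but held GGGGGCGC, which occurred in 6 members (0.547%) against 0.364% of chromosome 11 fragments. To show these members beside the viewpoint, windows of 30 bases are given with the matched strand read 5′ to 3′ and with the 8 letters and any overlapping core in capitals.
HS39.5, chr11:32137205-32137234, plus strand: aggcctggccactGGGGGCGCcattcgcca
Intergenic, -168 kb, chr11:31968991-31969020, minus strand: gggcttgtgggtgGGGGGCGCtcagatgcc
Mpg, -8.76 kb, chr11:32126711-32126740, plus strand: agcgccggtgagaGGGGGCGCcgcgtcgcg
Hbq1b, chr11:32186923-32186952, minus strand: caagaggCCGCCAGGGGGCGCtgcatcgtt
Hbq1a, chr11:32200028-32200057, minus strand: caagaggCCGCCAGGGGGCGCtgcatcgtt
CTCF +44, chr11:32221384-32221413, minus strand: atagtggCCTGCAGGGGGCGCcccagagac
Ubtd2, 217 kb downstream, chr11:32355165-32355194, plus strand: cttgcctagacgcGGGGGCGCggggaagtg

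The 8 letters read on the plus strand at HS39.5, at the Mpg fragment and at the Ubtd2 fragment. They read on the minus strand, opposite to the viewpoint, at Hbq1b, Hbq1a, +44 and the intergenic fragment at -168 kb. The windows at Hbq1b and Hbq1a, minor globin genes of the theta type, were identical in all 30 bases and lie just upstream of the annotated gene starts. These genes are near-identical copies, so reads assigned to either of their fragments are uncertain. The +48 fragment (2972 bp) held neither set of letters. A match is a description of sequence and was not tested for binding.

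Reporter reads from the viewpoint ranged from 21076 to 42958 per library at MFL 0 h and from 8534 to 19181 at MFL 30 h in the NextSeq run, from 2690 to 9168 in the MiSeq run, and from 25517 to 49475 in WT and DKO. The share of reporter reads on chromosome 11 was 61.4% in WT replicate 1 against 76.6% and 77.6% in the other WT replicates and 65.2% to 69.6% in DKO, and values were therefore scaled to chromosome 11 reads. MFL NextSeq libraries carried repeated reads, with 3.62 to 3.93 reads per contacted fragment far from the locus on chromosome 11 at 0 h and 1.79 to 2.06 at 30 h, against 1.167 to 1.197 in WT and DKO. The 2 runs of each MFL replicate were closer to each other than independent sampling of reads would give (chi-square per degree of freedom 0.338 to 0.629), and they were averaged as 1 library. Fragments captured as viewpoints in the same tube were at 0: both Hba-1 and Hba-2 fragments had no reads in any file, and the +44 and +48 fragments had none in WT or DKO. Of the members within 1 kb of such a viewpoint, 4 of 21 had reads in MFL and 8 of 37 in WT and DKO. Contacts with +44 and +48 could therefore be measured in the MFL libraries only.

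The R1 and R2 fragments served as the check of the DKO label. From HS39.5 the R2 fragment (chr11:32151062-32151881) had 32, 35 and 46 reads in the WT replicates and 0, 0 and 1 in DKO. The R1 fragment (chr11:32145279-32146566) had 82, 50 and 53 reads in WT and 52, 36 and 43 in DKO, so reads on it remained in DKO. Next to R2, chr11:32150623-32151061 had 48, 49 and 43 reads in WT and none in DKO. Next to R1, chr11:32144385-32145278 fell from 556, 705 and 540 reads per 100000 chromosome 11 reads in WT to 181, 198 and 231 in DKO (log2 change -1.51 ± 0.18 SE, adjusted p 2.81e-07, limma). R1 and R2 were left out of every comparison of DKO with WT, and leaving these 2 neighbours out as well also gave 84 called fragments.

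In WT erythroblasts at 30 h the members took 71.5% ± 2.56 (SD, n = 3) of the viewpoint's chromosome 11 reads, and 75 of 1096 members held 50% of the members' reads. The corresponding shares were 63.8% ± 1.49 at MFL 0 h, 67.2% ± 0.986 at MFL 30 h and 62.8% ± 0.755 in DKO. The highest values lay close to the viewpoint, and the profile was uneven on its 2 sides. At 1 to 5 kb the downstream side, which runs into the globin domain, had 1.02 ± 0.16 (SD, n = 3) times the reads per kb of the upstream side in WT. Between 5 and 40 kb downstream, which covers the body of Nprl3 and the enhancers, the ratio was 0.407 ± 0.042 at 5 to 10 kb, 0.450 ± 0.077 at 10 to 20 kb and 0.384 ± 0.038 at 20 to 40 kb. It was 0.972 ± 0.081 at 40 to 60 kb, which spans both adult globin genes, and 3.35 ± 0.28 at 60 to 80 kb, which begins shortly before Hbq1a, the last globin gene. Fragments within 1 kb of a captured viewpoint were left out of these ratios, so the adult gene fragments did not enter them. In WT this left 13.03 kb downstream at 40 to 60 kb and 11.82 kb at 80 to 100 kb, against 19.63 and 19.25 kb upstream. In every WT replicate the ratio was below 1 in each class from 5 to 40 kb and above 2 in both classes from 60 to 100 kb.

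MFL erythroblasts had a profile of the same kind, with some distance classes differing between time points. At MFL 30 h the downstream to upstream ratio per kb was 0.329 ± 0.069 at 5 to 10 kb, 0.397 ± 0.023 at 20 to 40 kb and 3.36 ± 0.766 at 60 to 80 kb, and at MFL 0 h it was 0.377 ± 0.073, 0.528 ± 0.069 and 2.54 ± 0.289. All replicates of both time points were below 1 from 5 to 40 kb and above 1 from 60 to 100 kb. From 0 h to 30 h the mean ratio went from 0.862 to 1.13 at 1 to 5 kb. It also went from 0.528 to 0.397 at 20 to 40 kb and from 1.08 to 0.901 at 40 to 60 kb. Replicates did not overlap in these classes (exact permutation p 0.1 each, adjusted p 0.3 over 9 classes), and they overlapped in the others. The plot of ratios by distance shows these values for each replicate.

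**Figure D1:**
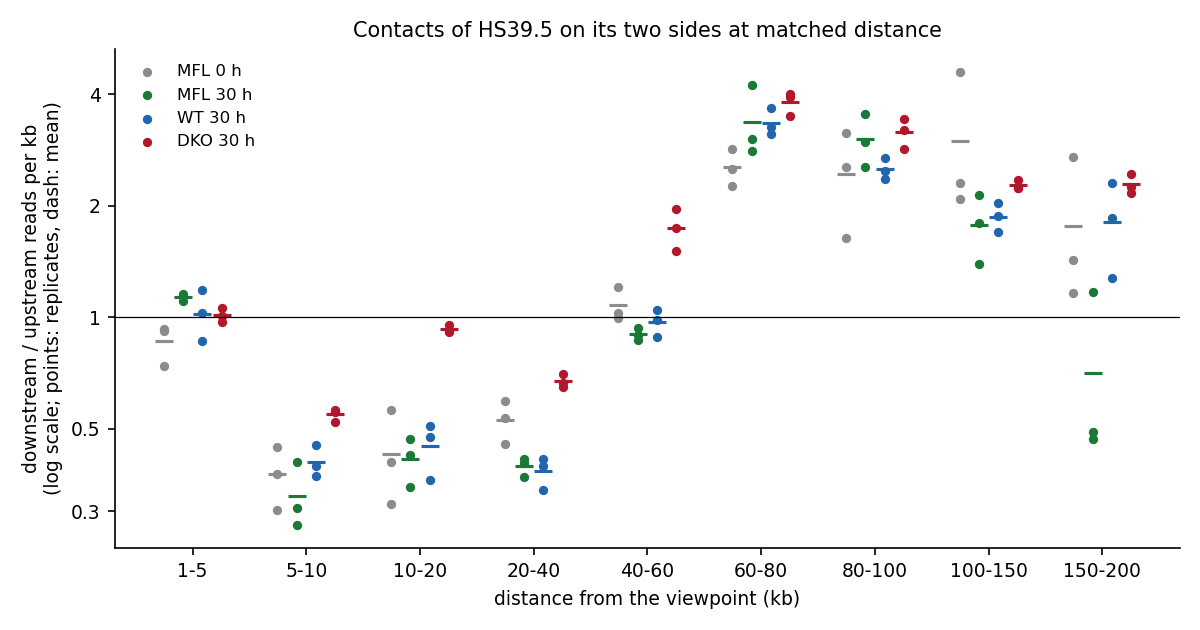
Ratio of reads per kb downstream to upstream of the HS39.5 viewpoint (log scale) in 9 distance classes in kb, with points for replicates and dashes for means of 3. Fragments within 1 kb of a captured viewpoint are left out. From 5 to 40 kb every replicate of all 4 groups lies below 1, and from 60 to 100 kb every replicate lies above 1, with the DKO mean at 10 to 20 kb (0.929) about level with the upstream side.

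Fixed intervals show where the reads fell. The domain, taken as the stretch covered by the COMP BAC probe and running from 1.58 to 63.04 kb downstream, took 21.1% ± 2.02 of chromosome 11 reads in WT, against 35.0% ± 0.692 in the upstream stretch of the same length. Per kb these were 356 and 563 reads per 100000. The stretch from the end of the domain to the end of +48, 63.05 to 89.87 kb away, took 6.79% ± 0.269, or 253 reads per kb, and the next stretch of equal length took 1.79% ± 0.059, or 67.4 reads per kb. Reads per kb thus dropped beyond +48 in all 3 WT replicates. Fragments at or near captured viewpoints, mostly at 0, count in these lengths, so reads per kb are understated in the downstream stretches. The upstream side fell with distance as well. In the distance classes of WT it went from 73.8 reads per kb at 80 to 100 kb to 15.3 at 100 to 150 kb. Downstream the same classes went from 186 to 28.5. How much of the drop beyond +48 goes with distance alone was not tested.

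Single fragments beyond 60 kb showed where this far signal sits. Of the 10 members more than 60 kb downstream with the highest mean over WT and MFL 30 h, 3 lay at the end of the domain and 7 between it and +48, and none lay beyond +48. The +44 and +48 fragments could not enter this ranking on equal terms, being at 0 in WT through capture, and 1 of the 10 (chr11:32222955-32223357) lies within 1 kb of the captured +48 fragment. The highest was the fragment at the start of Hbq1a (chr11:32199493-32200137), at 218, 350 and 366 reads per 100000 in WT, 333, 478 and 200 at MFL 30 h and 302, 170 and 312 in DKO. Next to it, chr11:32200138-32200469 had 214, 329 and 401 in WT. In intergenic DNA before +44, chr11:32218902-32219377 had 218, 209 and 253 reads in WT. Groups overlapped at Hbq1a. Upstream, the 5 highest members beyond 60 kb averaged between 44.6 and 91.3 in WT, all below any of the downstream 10.

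The Hbq1b fragment (chr11:32186469-32187032), 49.04 kb downstream between the adult genes, stood above its neighbours. It had 416, 364 and 294 reads per 100000 at MFL 30 h, which is 635 per kb against a median of 227 per kb in the 25 members of at least 100 bp within 10 kb of the same distance, none of which was higher. At MFL 0 h it was 565 per kb against 267 and 4 of 25 were higher, in WT 497 against 323 with 2 of 25 higher, and in DKO 539 against 367 with 7 of 25 higher. The Hbq1a fragment was 522 per kb at MFL 30 h against a median of 272, with 2 of 28 higher. In the other groups it was closer to its neighbours, at 398 against 278 at MFL 0 h with 11 of 28 higher, 483 against 365 in WT with 7 higher and 405 against 369 in DKO with 12 higher. By contrast the Mpg fragment that holds the 8 letters, at -8.76 kb, was 265 per kb in WT against 1219, with all 33 like-distance members higher. In WT, members holding the core motif had a lower median than the others in most distance classes and a higher one in a few. At 10 to 20 kb upstream 3 members holding it had a median of 417 reads per kb against 817 in 16 others. At 20 to 40 kb upstream, where it was higher, 4 members had 651 against 463 in 43 others. Fragments of 1 distance class share libraries and base composition, so these levels are given as a description with no test.

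Contact from HS39.5 with the +44 fragment (chr11:32220920-32221718, 799 bp, intergenic, 83.49 kb from the viewpoint) was higher at MFL 30 h than at MFL 0 h in every replicate. It had 217, 122 and 164 reads per 100000 at 0 h and 447, 235 and 297 at 30 h. No 30 h replicate overlapped the 0 h replicates, and the means were 168 ± 47.3 and 326 ± 109 (SD, n = 3), a ratio of 1.94. The two-sided exact permutation test gave p = 0.1, the smallest that 3 against 3 can give, and limma over all chromosome 11 fragments gave a log2 change of 0.91 ± 0.48 SE with an adjusted p of 0.764. The difference therefore did not pass the threshold. It rested on 31, 21 and 47 NextSeq reads at 0 h and 25, 17 and 34 at 30 h. In the MiSeq run, which weighs equally in these values, there were 4, 3 and 10 reads at 0 h and 6, 4 and 13 at 30 h.

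Set beside other downstream members within 10 kb of its distance, +44 was not the highest. Its 210 reads per kb at 0 h lay below their median of 272, with 20 of 30 higher, and its 408 per kb at 30 h lay above their median of 310, with 9 of 30 higher. Upstream members at that distance had medians of 84.9 and 54.5 reads per kb. By reads per fragment, +44 ranked 13 at 0 h and 2 at 30 h among 353 members more than 60 kb downstream. By reads per kb its ranks among them were 46 at 0 h and 21 at 30 h.

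The +48 fragment (chr11:32224325-32227296, 86.90 kb away) had 86.6, 30.7 and 204 reads per 100000 at 0 h and 93.5, 252 and 48.9 at 30 h. The time points overlapped, and the exact permutation p was 0.6. These values rested on 10, 4 and 48 NextSeq and 2, 1 and 15 MiSeq reads at 0 h. At 30 h there were 3, 10 and 6 NextSeq and 2, 7 and 2 MiSeq reads. Per kb this was 36.1 at 0 h and 44.2 at 30 h, below the medians of 249 and 258 in 34 downstream members at a like distance and also below the upstream medians of 71.0 and 56.9. Of the 34, all 34 were higher than +48 at 0 h and 32 at 30 h. The plot of +44 and +48 shows these replicates beside both medians.

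**Figure D2:**
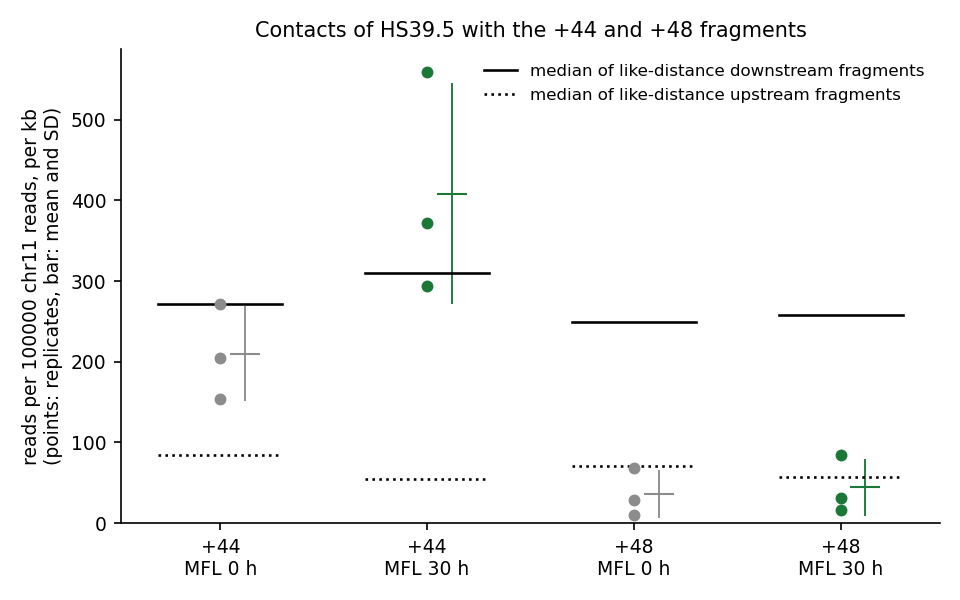
Reads from HS39.5 on the +44 and +48 fragments per 100000 chromosome 11 reads and per kb at MFL 0 h and 30 h, with points for the 3 replicates, bars for mean and SD, and lines for the medians of other members within 10 kb of the same distance downstream (solid) or upstream (dotted). At +44 the 30 h mean (408) lies above and the 0 h mean (210) below the solid line, while at +48 both means lie below both lines.

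Differentiation from 0 h to 30 h, when α-globin transcription is turned up, was compared next across all members. No fragment passed the threshold: 0 of 453 members tested (0 of 558 on chromosome 11, 0% called), with 32 members at an unadjusted p under 0.05 by limma. The median log2 change over the members was -0.01, and 224 of 453 were above 0. edgeR on the same fragments also called 0 members (23 at an unadjusted p under 0.05), and DESeq2 called 0 (38). In data simulated for this comparison over 548 fragments limma recovered 35.0% of changes of 2-fold and 80.0% of 4-fold, so smaller changes of single fragments were not detectable at this depth.

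In bins of 2 kb, 1 of 167 bins in the window was called (1 of 384 on chromosome 11, 0.26% called). It was the bin nearest downstream of the viewpoint, chr11:32138000-32139999 in Nprl3, which rose from 2911, 3183 and 3702 reads per 100000 at 0 h to 4896, 4594 and 4495 at 30 h. Its replicates did not overlap, and the log2 change was 0.52 ± 0.10 SE (adjusted p 0.000257, limma). It was not called by edgeR (adjusted p 0.11) or without MFL 0 h replicate 1 (0.173), MFL 30 h replicate 1 (0.125) or MFL 30 h replicate 2 (0.077).

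**Figure D3:**
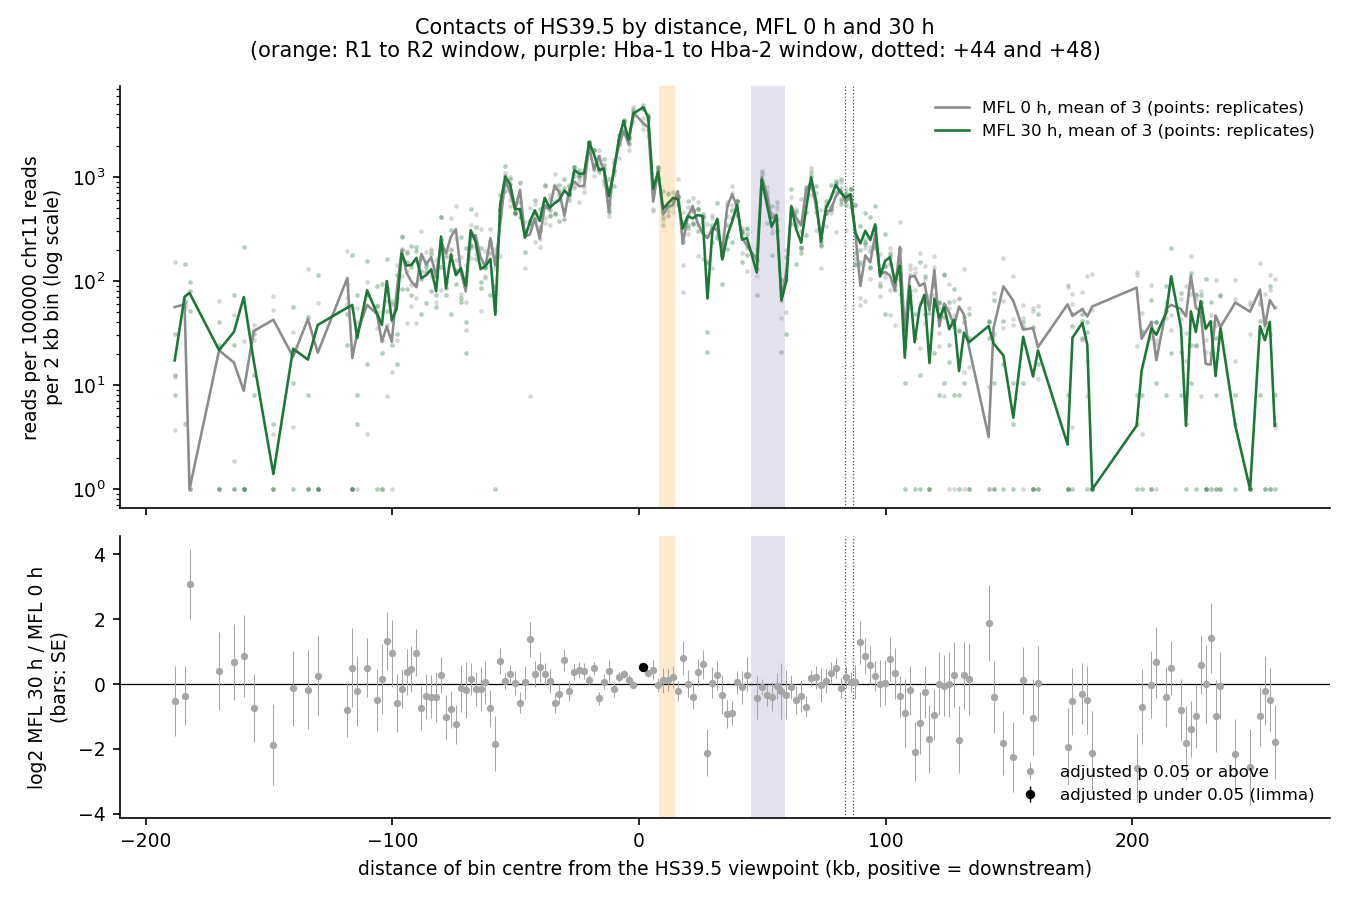
Reads from HS39.5 in 2 kb bins against distance from the viewpoint in kb at MFL 0 h and 30 h (upper panel, log scale, points for replicates, values under 1 drawn at 1, bins averaging at least 20 only), with the log2 change and its SE below. Only 1 bin, beside the viewpoint (black), was called.

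Over fixed intervals the ratios of 30 h to 0 h lay between 0.658 and 1.17. The upstream stretch went from 30.3%, 30.1% and 28.9% at 0 h to 32.5%, 32.7% and 31.6% at 30 h, a ratio of 1.08. The window from Hba-1 to Hba-2, which includes those captured fragments at 0, went from 2.95%, 2.78% and 2.56% to 2.35%, 2.51% and 2.48%, a ratio of 0.886. The rest of the window downstream, more than 116.35 kb away, went from 2.05%, 2.81% and 2.57% to 1.64%, 1.34% and 1.90%, a ratio of 0.658. In these 3 intervals the replicates did not overlap, with an exact permutation p of 0.1 and an adjusted p of 0.267 over 8 intervals, which this design cannot bring below 0.05. The last of them rests on sparse far fragments, which held more reads each at 0 h than at 30 h, and the part of these repeated reads in it was not tested.

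The other intervals overlapped between time points or had a larger p. The whole domain took 18.9% ± 1.39 at 0 h and 20.4% ± 0.237 at 30 h (exact permutation p 0.2). The stretch from the domain end to +48, which holds the +44 fragment, took 6.81% ± 0.522 and 6.96% ± 0.263 (exact permutation p 0.7).

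Deleting R1 and R2 was compared with WT to ask whether contacts of the boundary change when the enhancers are lost. Of 445 members tested, 84 were called by limma, 27 higher and 57 lower in DKO. Over all 447 chromosome 11 fragments tested 18.8% were called, 6.04% higher and 12.8% lower, so nearly all tested fragments were members. Replicates did not overlap in 78 of the 84, which follows largely from calling them on the same values and is no added evidence. The count was 32 without WT replicate 3 and 48 without DKO replicate 3. The balance of the 2 directions depended on scaling, and members took 62.8% of chromosome 11 reads in DKO against 71.5% in WT. The median log2 change of tested members was -0.20 on the chromosome 11 scale. Scaling to reads in the window moved it by 0.17 and gave 31 higher and 17 lower, TMM scaling in edgeR moved it by 0.22 and gave 45 higher and 13 lower, and DESeq2 moved it by 0.19 and gave 27 higher and 6 lower.

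Under all 4 of these fits 32 members were called in 1 direction, 26 higher and 6 lower. The 26 higher members all lay within the domain, 9.14 to 52.30 kb downstream, with log2 changes from 0.58 to 1.49. Replicates did not overlap in any of them, which again follows largely from how they were called. With no filter on low values, where every fragment is tested, 1 of these 26 and all 6 lower members were called by limma. Of the 26 higher members, 20 lay inside Nprl3 between 9.14 and 24.82 kb, on both sides of the deleted R2. A further 1 lay at 37.37 kb, and 5 lay together between the adult globin genes at chr11:32187832-32190721, 50.41 to 52.30 kb away. The 6 lower members were the 2 fragments beside R1 and R2 and 4 fragments upstream of the viewpoint between -11.1 and -4.1 kb. How far each deletion reaches was not settled here, so at those 2 fragments lost sequence and fewer contacts cannot be told apart.

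Within the Nprl3 group, the fragment chr11:32146903-32148395, 9.48 kb away, had 265, 287 and 257 reads per 100000 in WT and 426, 469 and 525 in DKO (log2 change 0.79 ± 0.17 SE, adjusted p 0.00392, limma). Every DKO replicate lay above every WT replicate. The short fragment before it, chr11:32146861-32146902 (42 bp), had 63.7, 41.8 and 74.1 in WT and 138, 186 and 236 in DKO, the largest rise of the 26 on the log2 scale (1.49 ± 0.27 SE, adjusted p 0.000853).

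Beyond R2 the same direction was seen. At chr11:32152405-32152574, 14.98 kb away, WT replicates had 73.7, 52.3 and 100 reads and DKO replicates 164, 175 and 174 (log2 change 1.12 ± 0.26 SE, adjusted p 0.00474, limma). At chr11:32153936-32154078, which overlaps a coding exon of Nprl3 at 16.51 kb, WT had 43.6, 99.3 and 69.7 and DKO had 175, 164 and 205 (1.29 ± 0.27 SE, adjusted p 0.00242). Neither pair of groups overlapped.

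Between the enhancers, chr11:32148903-32149605 held the core motif on the minus strand and had 174, 99.3 and 105 reads in WT and 208, 288 and 272 in DKO (log2 change 1.00 ± 0.23 SE, adjusted p 0.00474, limma). Its groups did not overlap. Without the filter on low values, this fragment and the 42 bp, 14.98 kb and 16.51 kb fragments were not called (adjusted p 0.128 to 0.503, limma). Of the 32 members called under all 4 fits 6 hold the core, 4 of them higher. Windows are shown for the 3 of these 6 that were among the 5 smallest adjusted p in their direction: this fragment, the neighbour of R1, which holds the core in 2 places, and a lower member upstream.
Lower, -11.1 kb, chr11:32125466-32125495, plus strand: gagttcagtCCCGGAGCTGGCcagtagagt
Lower, beside R1, chr11:32144392-32144421, minus strand: ggtttggagCCATGAGGTGGCttgcattaa
Lower, beside R1, chr11:32145182-32145211, minus strand: tcccccatgCCCACAGCTGGCatttaatcc
Higher, between R1 and R2, chr11:32149151-32149180, minus strand: ttatactagCCTATAGAAGGCaaaggccag

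Bins of 2 kb hold more reads each. In the window 44 of 179 bins were called, 12 higher and 32 lower (over chromosome 11, 14.4% called, 3.98% higher and 10.4% lower), and with scaling to window reads 19 were higher and 15 lower. The bin chr11:32146000-32147999, between R1 and R2, rose from 459, 559 and 549 reads per 100000 in WT to 910, 1000.1 and 1028 in DKO (log2 change 0.90 ± 0.13 SE, adjusted p 0.000149, limma). The bin just beyond R2, chr11:32152000-32153999, rose from 573, 679 and 662 to 1192, 1136 and 997 (0.79 ± 0.13 SE, adjusted p 0.000378). Of the 12 higher bins 11 were in the domain: 8 followed each other between 9.7 and 25.7 kb with a gap at R2, 1 covered Hba-x, the embryonic α-like globin gene, at 39.7 kb, and 2 lay at 51.7 and 53.7 kb. Both lower bins in the domain lay before R2: the one beside R1 fell by 1.07 on the log2 scale (adjusted p 0.000149, limma), and the one nearest the viewpoint, which rose between 0 h and 30 h, fell by 0.31 (adjusted p 0.0225, limma). The other higher bin, 127.7 kb away in an intron of Sh3pxd2b, averaged 10.9 reads in WT and 44.5 in DKO (log2 change 1.38 ± 0.39 SE, adjusted p 0.0172, limma).

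**Figure D4:**
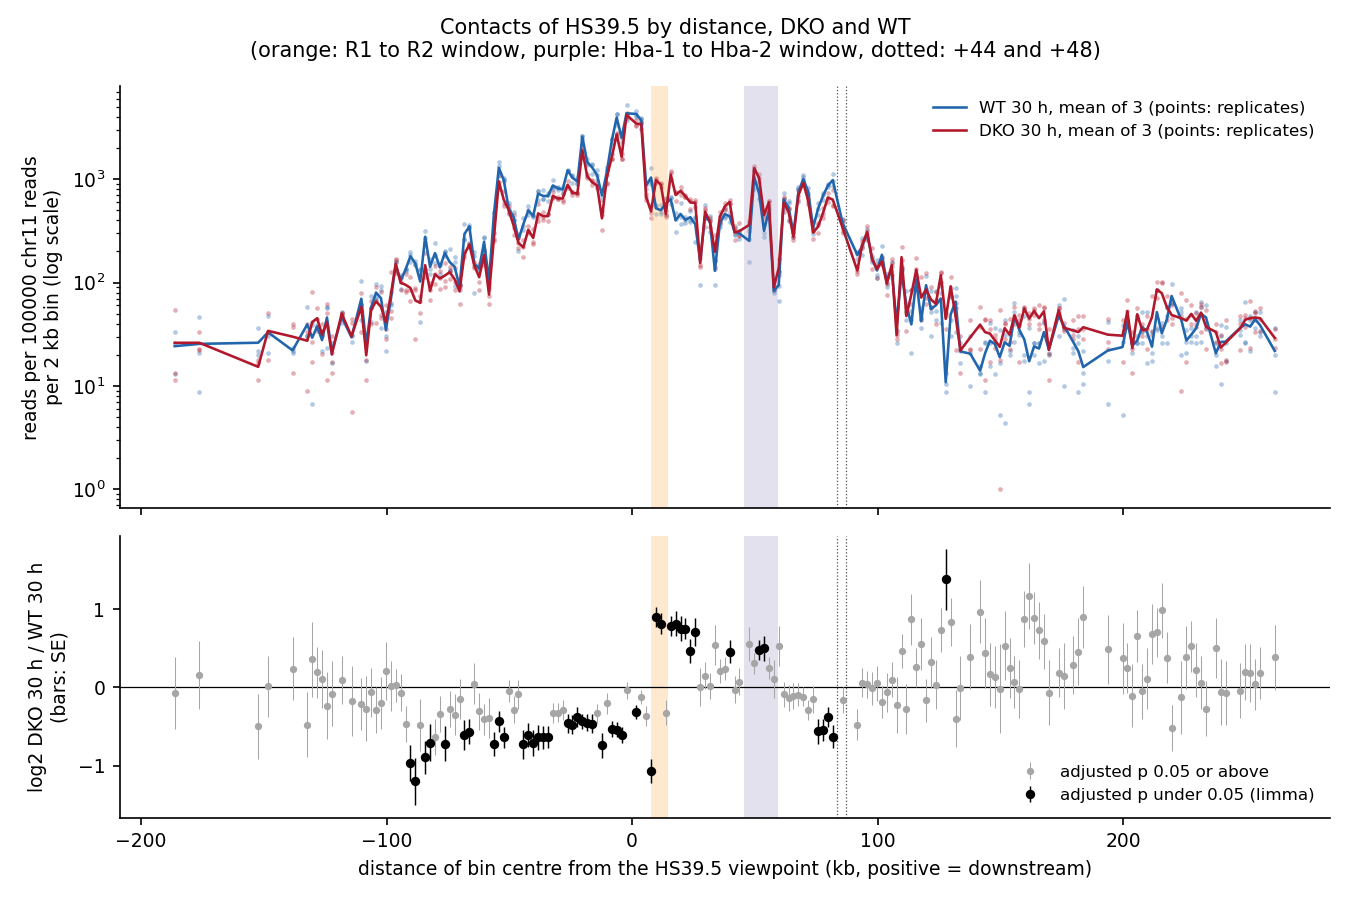
Reads from HS39.5 in 2 kb bins against distance from the viewpoint in kb in WT and DKO erythroblasts at 30 h (upper panel, log scale, points for replicates, values under 1 drawn at 1, bins averaging at least 20 only, R1 and R2 left out), with the log2 change and its SE below. Called bins (black) include runs that are higher in DKO from 9.7 to 25.7 kb and lower upstream and at 75.7 to 81.7 kb. A few other bins, higher or lower in the domain and higher farther downstream, are also called.

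By interval, the window from R1 to R2 without those fragments took 1.37%, 1.76% and 1.68% of chromosome 11 reads in WT and 2.19%, 2.36% and 2.41% in DKO, a ratio of 1.45. The window from Hba-1 to Hba-2 took between 2.52% and 3.17% in the 3 WT replicates (mean 2.93% ± 0.354) and 3.88%, 3.85% and 3.66% in DKO, a ratio of 1.30. Neither interval overlapped between genotypes. The whole domain went from 21.1% ± 2.02 to 23.0% ± 0.331, a ratio of 1.09, and here WT replicate 1 (18.8%) lay apart from the other WT replicates (22.3% and 22.3%). Replicates did not overlap, and the exact permutation p was 0.1 in each, with an adjusted p of 0.114 over 8 intervals. Within the domain 26 of 128 tested members were called higher and 6 lower, with a median log2 change of 0.32, against -0.20 over the window.

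Upstream of the viewpoint members were lower in DKO on this scale. The stretch of domain length took 34.9%, 35.7% and 34.3% in WT and 25.3%, 26.6% and 26.9% in DKO, a ratio of 0.750, with no overlap (exact permutation p 0.1, adjusted 0.114). Of its 144 tested members, 40 were called lower and 1 higher, with a median log2 change of -0.46. The number called lower was 8 with scaling to window reads, 6 with TMM and 4 with DESeq2, and the median stayed negative under each of these (-0.30, -0.26 and -0.29).

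The 4 upstream members called under every fit lay in Nprl3, and 2 of them also overlap Mpg, which encodes a DNA repair glycosylase. At chr11:32129461-32130254, at -6.92 kb, WT had 710, 873 and 876 reads per 100000 and DKO had 524, 390 and 476 (log2 change -0.81 ± 0.16 SE, adjusted p 0.00156, limma). At chr11:32131330-32131943 WT had 724, 998 and 915 and DKO had 547, 537 and 450 (-0.76 ± 0.16 SE, adjusted p 0.00242). The largest fall of the 4 was at chr11:32124427-32126076, at -11.1 kb, which went from 405, 486 and 458 to 292, 186 and 245 (-0.89 ± 0.19 SE, adjusted p 0.00242). None of these groups overlapped.

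The ratio of the 2 sides does not depend on the scaling of a library. In DKO it was 0.547 ± 0.022 at 5 to 10 kb, 0.929 ± 0.023 at 10 to 20 kb, 0.672 ± 0.028 at 20 to 40 kb and 1.74 ± 0.224 at 40 to 60 kb, each higher than in every WT replicate. The differences between the genotypes' mean log2 ratios were 0.43, 1.06, 0.81 and 0.83 (exact permutation p 0.1 each, adjusted p 0.15 over 9 classes). They were 0.33 at 80 to 100 kb (mean ratio 3.16 in DKO and 2.52 in WT) and 0.29 at 100 to 150 kb, also without overlap and with the same exact permutation p. At 1 to 5 kb the ratio was 1.01 ± 0.044 in DKO and 1.02 ± 0.16 in WT, with overlap. At 10 to 20 kb both sides contributed: downstream reads per kb were 1.52 times those of WT, and upstream reads were 0.733 times those of WT.

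Contacts from HS39.5 across the domain were lower in DKO on the chromosome 11 scale. The stretch from the domain end to +48 took 6.63%, 6.64% and 7.10% in WT and 5.62%, 5.54% and 5.22% in DKO, a ratio of 0.804, with no overlap (exact permutation p 0.1, adjusted 0.114). Of its 54 tested members 0 were called higher and 6 lower, against 2 lower with scaling to window reads, 2 with TMM and 0 with DESeq2. The 4 called bins followed each other from 75.7 to 81.7 kb with log2 changes from -0.38 to -0.63. At chr11:32214355-32215332 WT had 188, 204 and 157 reads per 100000 and DKO had 90.6, 102 and 75.7 (log2 change -0.96 ± 0.24 SE, adjusted p 0.00846, limma). At chr11:32218902-32219377 the WT values given above compare with 178, 79.1 and 120 in DKO (-0.86 ± 0.24 SE, adjusted p 0.015). The groups did not overlap at either fragment. The first was not called with DESeq2 (adjusted p 0.108) or with no filter (0.503, limma), and the second not with scaling to window reads (0.0696, limma), TMM in edgeR (0.132), DESeq2 (0.248) or no filter (0.503, limma). Set against the upstream side, as in the ratios above, contacts at 80 to 100 kb were not lower in DKO than in WT.

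Just beyond +48 the genotypes overlapped. The next stretch of equal length took 1.79% ± 0.059 in WT and 1.82% ± 0.114 in DKO (exact permutation p 0.7). Of its 38 tested members 0 were called by limma, and 1 was called higher with TMM in edgeR. Farther downstream the share was 2.23% ± 0.198 in WT and 2.83% ± 0.116 in DKO, without overlap, and 0 of 12 members were called.

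**Figure D5:**
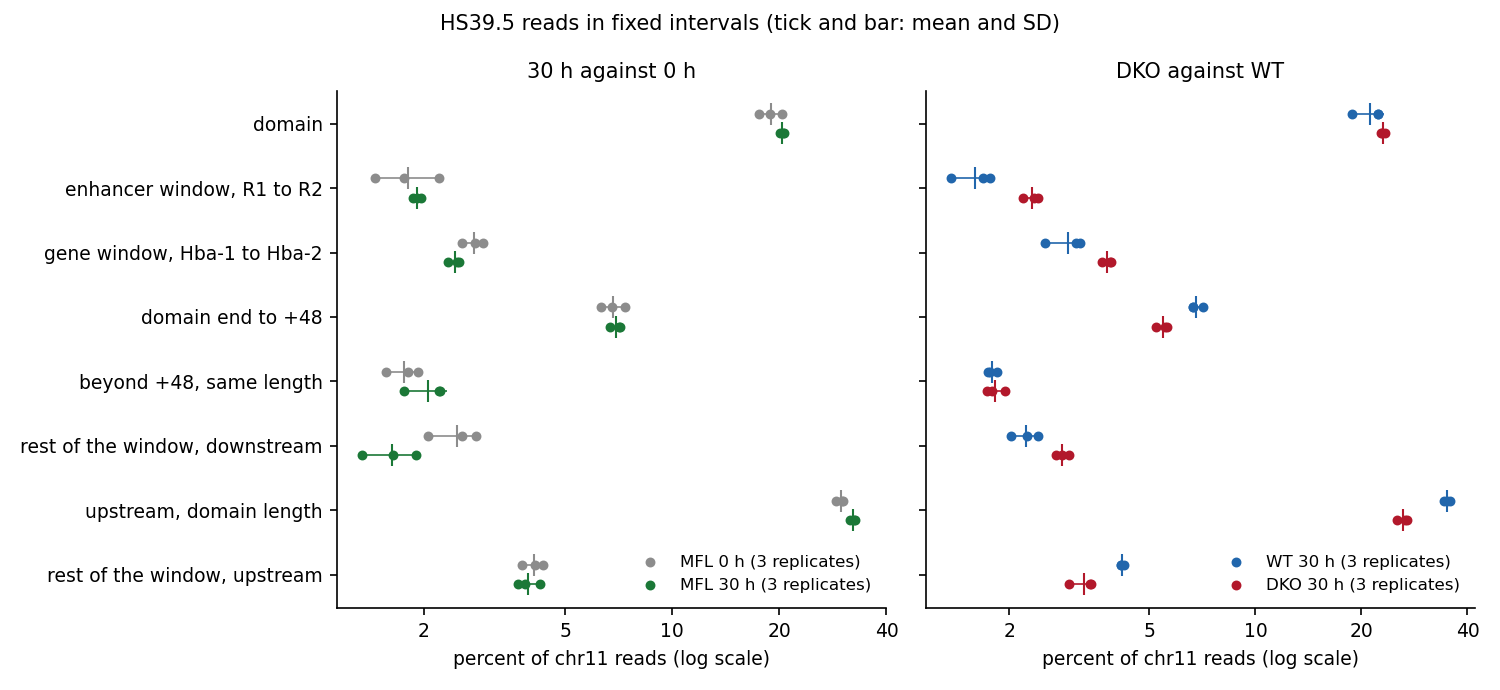
Share of chromosome 11 reads from HS39.5 (percent, log scale) in 8 fixed intervals at MFL 0 h and 30 h (left) and in WT and DKO (right), with points for replicates and ticks and bars for mean and SD. DKO lies above WT in the R1 to R2 window (2.32% against 1.60%) and below it upstream (26.2% against 35.0%), while at 0 h and 30 h the domain took 18.9% and 20.4%.

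Gene starts were mostly not called. Of 12 protein-coding gene starts in the window 10 could be tested between DKO and WT and 1 was called: the fragment at the start of Il9r, which encodes the interleukin 9 receptor, went from 144, 162 and 148 reads per 100000 in WT to 104, 107 and 57.9 in DKO (log2 change -0.74 ± 0.26 SE, adjusted p 0.0441, limma). Its groups did not overlap, and it was not called with scaling to window reads (adjusted p 0.163, limma), TMM in edgeR (0.22), DESeq2 (0.369) or no filter (0.503, limma). The start of Hba-x had 131, 105 and 91.5 in WT and 141, 130 and 156 in DKO (0.37 ± 0.24 SE, adjusted p 0.311), and that of Hbq1b had 211, 355 and 275 in WT and 352, 266 and 294 in DKO (0.13 ± 0.20 SE, adjusted p 0.678). The starts of Hba-a1 and Hba-a2 could not be measured, being captured fragments. Between 0 h and 30 h 8 gene starts could be tested and 0 were called.

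The fragments used as centres of FISH probes mark fixed points along the locus. Ex (chr11:32131944-32132753), at the proximal edge of the domain and upstream of the viewpoint, had 606, 695 and 632 reads in WT and 413, 429 and 401 in DKO (log2 change -0.62 ± 0.16 SE, adjusted p 0.00846, limma), without overlap. It was not called with scaling to window reads (adjusted p 0.0594, limma), TMM in edgeR (0.0733) or DESeq2 (0.134). E, between R1 and R2 at chr11:32150268-32150622, had 151, 152 and 192 in WT and 161, 119 and 116 in DKO (-0.31 ± 0.23 SE, adjusted p 0.376). A (chr11:32204980-32205648), at the distal edge, had 157, 73.2 and 157 in WT and 114, 113 and 71.2 in DKO (-0.30 ± 0.28 SE, adjusted p 0.494). E and A overlapped between genotypes. C and Cx, outside the domain, averaged 12.8 and 5.76 reads in WT and were too low to test.

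The reads from HS39.5 between the domain end and +48, divided by those in the domain beyond its midpoint, gave a ratio of 1.17, 1.01 and 1.04 in the WT replicates and 0.714, 0.733 and 0.714 in DKO. Every DKO replicate lay below every WT replicate. The other captured viewpoints lie inside these stretches, so their ratios were not compared with that of HS39.5.

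WT and MFL 30 h are the same condition measured in separate experiments with different co-captured viewpoints and depth, which cannot be told apart. Of 427 members tested between them 0 were called by limma (0% of 454 on chromosome 11), with 32 members at an unadjusted p under 0.05. Over 1057 fragments of the window outside all captured viewpoints, the group means correlated with a Pearson r of 0.93 on the log2 scale and a Spearman rho of 0.83, which is across fragments that are not independent replicates. The domain, without fragments near any captured viewpoint, took 20.6% ± 0.341 at MFL 30 h and 21.3% ± 2.00 in WT (exact permutation p 0.6). Other intervals, measured in the same way, did not overlap between the experiments and were higher in WT. The upstream stretch of domain length took 33.0% ± 0.635 and 35.1% ± 0.699. From the domain end to +48 the share was 5.54% ± 0.153 and 6.37% ± 0.283, and in the far downstream rest 1.67% ± 0.282 and 2.24% ± 0.198 (exact permutation p 0.1 each, adjusted p 0.267).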

How the data were processed

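NG Capture-C reads from 3 biological replicates each of MFL 0 h, MFL 30 h, WT and DKO erythroblasts were trimmed and aligned by the authors, with Trim Galore, Bowtie and the mm9 build named in the submitters' processing notes; versions are not given in the sources used here. The deposited values are RPM-like: reads per DpnII fragment scaled by the authors to 100000 reporter reads of the viewpoint. Whole reads could be recovered from them (100% of values whole within 0.1 read), and edgeR on those reads called 79 members in DKO against WT and 0 at 30 h against 0 h. Columns of 18 files were used, and none was left unmapped.

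Values were rescaled to 100000 chromosome 11 reads, and the 2 runs of each MFL library were averaged. Fragments or 2 kb bins averaging at least 20 were tested with limma 3.58.1 in R 4.3.3 on log2(value + 10), with Benjamini-Hochberg adjustment over chromosome 11 and a threshold of 0.05. This scale understates changes of low fragments. Exact permutation tests (two-sided) were used for interval shares and side ratios, and their smallest p with 3 against 3 is 0.1. The test used in the study, DESeq2 (1.42.0), and edgeR (4.0.16) quasi-likelihood tests were alternatives, with other scalings, filters, pseudocounts (1 and 30), bin sizes, single runs, a replicate block and each replicate left out. Leaving out the fragments beside R1 and R2, and the count tests on the reads of 1 run, were added after the data were seen. On simulated data for DKO against WT (422 fragments), with the same fixed spread between replicates, limma recovered 66.7% of 2-fold and 96.3% of 4-fold changes.

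Named were the labelled sites, the gene starts, up to 5 fragments and 3 bins per comparison and direction with the smallest adjusted p among those called without overlap, the 10 highest members over 60 kb downstream and the 5 highest over 60 kb upstream, and up to 5 high fragments holding the core motif. The fragments holding GGGGGCGC and the groups of neighbouring called fragments and bins were chosen after their values were seen. The members and lists were chosen with earlier results of these data known. A count of 3 reads corresponds to 9.87 to 16.7 per 100000 in WT and DKO, 11.0 to 61.3 in MFL NextSeq libraries and 45.3 to 183 in MFL MiSeq libraries, counting error only. Gene annotation was GENCODE vM1 on mm9.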

Additional observations from a re-analysis of the deposited data

How the results depend on the processing

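In DKO against WT the number of called members was 33 with DESeq2, 28 with no filter on low values (2 higher and 26 lower) and 48 with scaling to window reads, against 84, and 32 to 73 with 1 replicate left out (32 without WT replicate 3, 48 without DKO replicate 3). Called bins were 26 in bins of 5 kb and 26 to 45 with 1 replicate left out (26 without DKO replicate 2, 28 without DKO replicate 3), against 44. At 30 h against 0 h called members were 2 with no filter and 0 to 2 with 1 replicate left out (2 without MFL 0 h replicate 1), and called bins were 0 in bins of 5 kb, 0 with edgeR and 0 to 2 with 1 replicate left out (0 without MFL 0 h replicate 1, MFL 30 h replicate 1 or MFL 30 h replicate 2, and 2 without MFL 0 h replicate 3). The cause was not tested.

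On the log2 scale, the 30 h against 0 h share of the domain was -0.064 with 5 kb around the viewpoint left out, -0.0014 with values as deposited and 0.058 to 0.16 with 1 replicate left out. For the stretch beyond +48 the range was 0.14 to 0.32, and for the R1 to R2 window -0.050 to 0.25, below 0 in part of these fits. The gene window was -0.12 in the MiSeq and -0.23 in the NextSeq run alone, where replicates overlapped. The upstream stretch was 0.040 scaled to window reads and 0.0073 as deposited, and the rest upstream -0.16 as deposited. In DKO against WT the values as deposited gave 0.034 for the domain and 0.26 for the far downstream rest, and scaling to window reads gave 0.21 beyond +48.

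With the replicate block DKO against WT gave 89 members and 52 bins, and 30 h against 0 h gave 0 and 1. Same-numbered replicates correlated between -0.04 and 0.07, and not every sample correlated best with its own number, so the numbers name samples only. Shallow MFL 30 h libraries limit single fragments, and 3 replicates limit the exact tests.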
